A study of Homo sapiens with 6 samples.

Results

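The genes described here are ATF4, which encodes the main transcription factor of the amino acid and endoplasmic reticulum stress response, and 8 genes that stand with it in that response or in the synthesis of serine and asparagine: ASNS, PHGDH, PSAT1, PSPH, SHMT2, CEBPB, DDIT3 and TRIB3. They were chosen by name, and the levels of the listed transcripts of each were summed. All 9 of 9 were among the 11359 genes of the transcript table, and all 9 were among the 10305 genes that passed the filter on low values and were tested. The data are RNA sequencing of CAL-62, an established human cell line from an anaplastic thyroid carcinoma, in 3 libraries of cells made to overexpress FOXK2, a forkhead transcription factor, and 3 libraries of cells carrying the vector alone. Both groups were grown in the same serum-containing medium, and the sample labels name no drug and no amino acid withdrawal. The labels do not say which promoter drives FOXK2 or whether the cells are 1 clone or a pool. The libraries of a group are described as biological replicates, but separate cultures are not spelled out, so the p-values reflect only how far these libraries differ, which may be technical.

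ATF4 is controlled mainly at translation. When kinases phosphorylate the initiation factor eIF2, general protein synthesis falls, while upstream open reading frames in the ATF4 mRNA let more ATF4 protein be made. The protein pairs with C/EBP family members, among them C/EBP-beta (CEBPB), and binds composite C/EBP-ATF response elements in genes of amino acid supply. In serine synthesis PHGDH oxidises the glycolytic intermediate 3-phosphoglycerate, PSAT1 transaminates the product with nitrogen from glutamate, and PSPH removes the phosphate to give serine. SHMT2 then splits mitochondrial serine into glycine and a folate-bound carbon unit. ASNS makes asparagine from aspartate and glutamine. DDIT3 encodes CHOP, a factor linked to death under lasting stress, and TRIB3 a pseudokinase that ATF4 and CHOP induce and that restrains them.

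Promoter sequence is shown for ASNS because it was the member with the largest rise and holds the core of the response element. RefSeq promoter windows (GRCh38.p14, 250 bases before to 50 after a gene's start) were matched for 7 of the 9 members and searched on both strands for TGATGNAA, the core of the C/EBP-ATF response element, and for GTAAACA, a forkhead core. No window of a member held both motifs, so their letters could not overlap there. Among 35116 windows, 3.62% held TGATGNAA and 3.42% held GTAAACA. Among the 27305 genes of these windows, 4.46% and 4.19% held them in any window. One of the 2 ASNS windows held TGATGNAA, in the gene's own direction and 68 bases before the start, in capitals below. The 250 upstream bases of that window lie at chr7:97872409-97872658 on the minus strand.
ASNS: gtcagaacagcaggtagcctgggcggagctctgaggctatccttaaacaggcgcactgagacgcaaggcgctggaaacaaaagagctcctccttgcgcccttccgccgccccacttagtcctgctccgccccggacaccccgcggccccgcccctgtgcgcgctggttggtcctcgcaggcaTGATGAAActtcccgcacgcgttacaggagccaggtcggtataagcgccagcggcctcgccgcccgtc
The windows of ATF4, PSAT1, PHGDH, CEBPB, DDIT3 and TRIB3 did not hold these letters, and no member's window held GTAAACA. A match is a description of the sequence and not a measured binding site, and elements outside the windows were not searched.

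The library labels were checked on FOXK2 itself, which stood at 30.8, 36.2 and 30.1 FPKM (fragments per kilobase of transcript, scaled to the size of the library) in FOXK2 cells, against 16.3, 12.5 and 18.8 FPKM in vector cells (1.00 on the log2 scale, SE 0.17, limma adjusted p = 0.00525). The summed FPKM was 335151 to 363133 in FOXK2 libraries and 370457 to 395782 in vector libraries, and the number of reads behind it is unknown. Of 8 thyroid markers 3 were listed: PAX8 at 82.6 to 114 FPKM in FOXK2 cells and 91.2 to 155 FPKM in vector cells, HHEX and FOXE1. HHEX rose to 48.5, 55.0 and 45.0 FPKM in FOXK2 cells, against 22.0, 18.0 and 20.1 FPKM in vector cells (1.26 on the log2 scale, limma adjusted p = 0.000990, and 1.17 with GC and length correction). FOXE1 was below the filter, at 0.383, 0.233 and 0.250 FPKM in FOXK2 cells and 0.856, 0.832 and 0.826 FPKM in vector cells, without overlap. The thyroid markers TG, TSHR, SLC5A5 and NKX2-1 were not analysed here. Epithelial keratins and VIM were abundant in both groups, with summed epithelial markers at 2349 to 3533 FPKM in FOXK2 cells and 3562 to 4174 FPKM in vector cells. KRT19 and KRT7 were lower in FOXK2 cells (log2 fold changes -1.31 and -0.73, limma adjusted p = 0.000642 and 0.0193). KRT8, KRT18 and EPCAM were not called. With GC and length correction KRT19 was called lower (-0.71), KRT7 was not called, and KRT8 and KRT18 were called higher (0.50 and 0.66). CDH1 was not listed, and none of the 5 mesenchymal markers was called as deposited. With GC and length correction VIM was called higher (0.38), SNAI2 and FN1 were called lower (-0.73 and -0.45), and CDH2 and ZEB1 were not called. Of 7 leukocyte and endothelial markers CD68 and CD14 were listed, at a sum of 11.5 to 14.6 FPKM in FOXK2 cells and 13.9 to 21.0 FPKM in vector cells. Of 6 fibroblast markers COL1A1 and COL1A2 were listed, at a sum of 20.1 to 21.6 FPKM in FOXK2 cells and 30.3 to 39.6 FPKM in vector cells. Both were called lower in FOXK2 cells (log2 fold changes -0.59 and -1.22, limma adjusted p = 0.0159 and 0.00178). With the correction COL1A2 was called lower (-1.12) and COL1A1 was not called.

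Overexpression of FOXK2 went with higher mRNA of asparagine synthetase and of the first enzymes of serine synthesis, without higher ATF4 mRNA. Of the 9 members, 3 rose (ASNS, PSAT1 and PHGDH), 1 fell (CEBPB) and 5 were not called at a limma adjusted p under 0.05. Among all genes tested, 17.6% were called higher and 18.7% lower in FOXK2 cells, together 36.3%, so 4 calls among 9 is a share near the background. In 5 of the 9 no FOXK2 value lay within the range of the vector values or the reverse, against 52% of all genes, and 3 of these 5 were higher in FOXK2 cells, against 25.6% of all genes. The median log2 fold change of the 9 was 0.02, beside 0.01 over all genes tested.

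**Figure D1:**
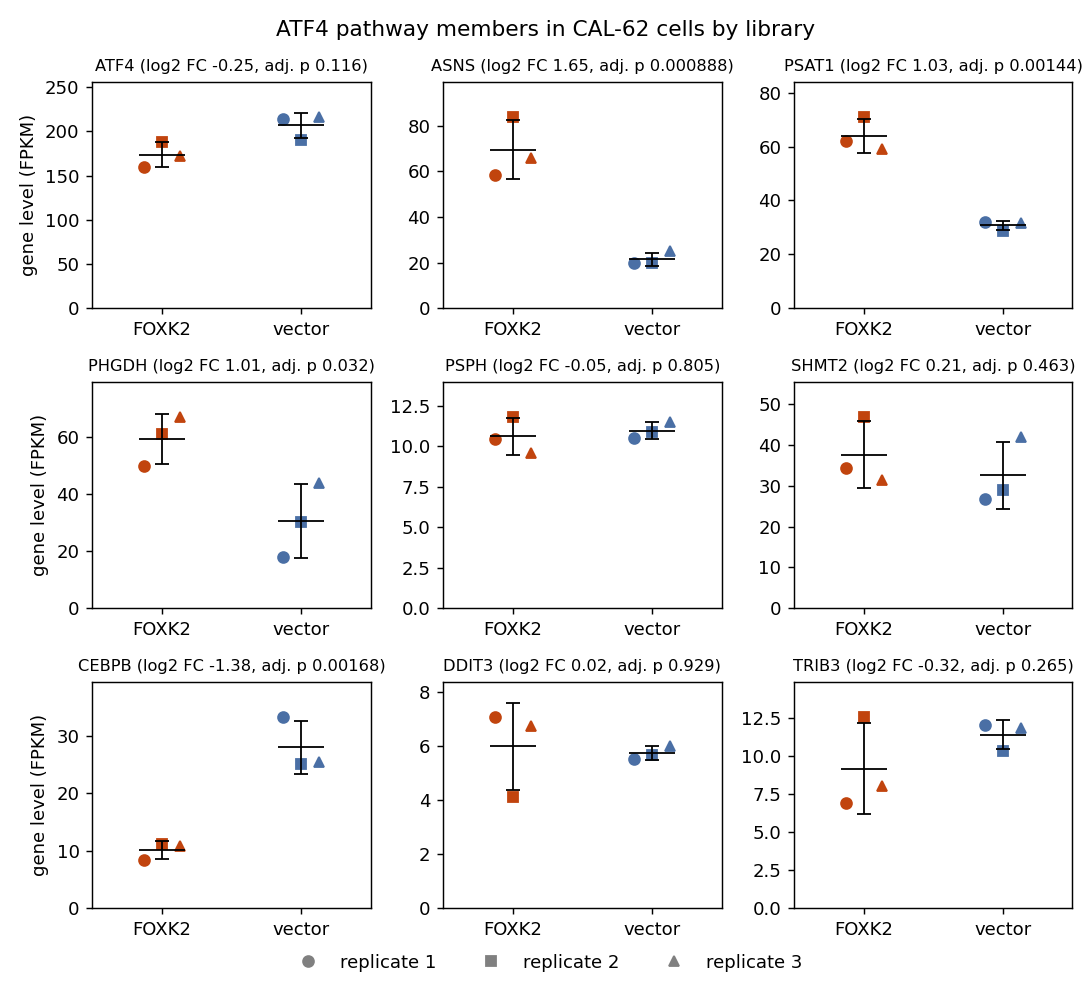
Gene level in FPKM (y axes from 0, scaled per gene) of the 9 members in each FOXK2 and vector library, with the marker shape giving the replicate, the long bar the mean and the whiskers the SD of 3 libraries. ASNS, PSAT1 and PHGDH lie higher in FOXK2 cells with no overlap, and CEBPB lies lower.

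ASNS had the largest change of the 9. It stood at 58.6, 84.0 and 66.0 FPKM in FOXK2 cells, against 19.6, 19.7 and 24.9 FPKM in vector cells. The lowest FOXK2 library was above the highest vector library by more than the spread within either group. The means were 69.5 ± 13.05 FPKM in FOXK2 cells and 21.4 ± 2.98 FPKM in vector cells (SD, n = 3 each), a ratio of 3.25. The log2 fold change was 1.65 (SE 0.17, limma adjusted p = 0.000888), and 77 of the 10305 genes tested had a larger rise. The call was made in each of the 6 fits that left out 1 library (adjusted p from 0.00157 to 0.00594).

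The transaminase of serine synthesis, PSAT1, stood at 61.97, 71.0 and 59.0 FPKM in FOXK2 cells, against 31.8, 28.7 and 31.7 FPKM in vector cells. The groups were far apart relative to their spread. The log2 fold change was 1.03 (SE 0.12, limma adjusted p = 0.00144), and the call was made whichever library was left out (adjusted p from 0.00246 to 0.00971).

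PHGDH, the entry enzyme of the pathway, stood at 49.9, 61.3 and 67.3 FPKM in FOXK2 cells, against 17.9, 30.2 and 43.8 FPKM in vector cells. The groups did not overlap, but the vector libraries were widely spread and the highest of them came close to the lowest FOXK2 library. The means were 59.5 ± 8.80 FPKM in FOXK2 cells and 30.6 ± 12.998 FPKM in vector cells (SD, n = 3 each), which is 1.01 on the log2 scale (SE 0.29, limma adjusted p = 0.0320). That call rested on having all libraries: it was not made without FOXK2 replicate 1, 2 or 3 or without vector replicate 1 or 2 (adjusted p from 0.0530 to 0.0955), and was made without vector replicate 3 (adjusted p = 0.0161). The log2 fold change was 0.68 without vector replicate 1 and 0.92 without FOXK2 replicate 3.

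The last enzyme of serine synthesis did not follow the others. PSPH stood at 10.4, 11.8 and 9.58 FPKM in FOXK2 cells, against 10.5, 10.8 and 11.5 FPKM in vector cells. The groups overlapped throughout, with a log2 fold change of -0.05 and a 95% interval from -0.37 to 0.27 (limma adjusted p = 0.805). PSPH was thus the lowest of the serine synthesis enzymes in both groups. The ratio of PSAT1 to PSPH within a library was 5.94, 6.01 and 6.16 in FOXK2 cells, against 3.03, 2.65 and 2.75 in vector cells. That ratio varied little within a group and did not overlap between groups. It was not corrected for GC content, which was 42.6% for PSAT1 and 52.6% for PSPH. With GC and length correction the log2 fold changes were 0.73 for PSAT1 and 0.22 for PSPH.

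SHMT2, the mitochondrial enzyme that uses serine, stood at 34.4, 46.9 and 31.4 FPKM in FOXK2 cells, against 26.7, 28.95 and 42.0 FPKM in vector cells. The groups overlapped, and FOXK2 replicate 2 and vector replicate 3 were the high libraries. The log2 fold change was 0.21, with a 95% interval from -0.29 to 0.71 (limma adjusted p = 0.463), so a rise or fall of moderate size was not detectable with this spread.

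ATF4 itself was the most abundant of the 9 mRNAs in every library. It stood at 160, 188 and 172 FPKM in FOXK2 cells, against 213, 190 and 216 FPKM in vector cells. All FOXK2 libraries were below all vector libraries, but FOXK2 replicate 2 and vector replicate 2 nearly met. The log2 fold change was -0.25, with a 95% interval from -0.52 to 0.01 (SE 0.11, limma adjusted p = 0.116), and no call was made with any library left out (adjusted p from 0.0540 to 0.273). ASNS amounted to 0.366, 0.446 and 0.384 times the ATF4 level in FOXK2 libraries, against 0.0921, 0.104 and 0.115 times in vector libraries. These ratios were not corrected for GC content, which was 43.5% for ASNS and 55.7% for ATF4. With GC and length correction the log2 fold changes were 1.41 for ASNS and 0.07 for ATF4. ATF4 protein, on which its activity depends, was not measured.

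The partner factor CEBPB fell. It stood at 8.34, 11.2 and 10.8 FPKM in FOXK2 cells, against 33.3, 25.1 and 25.5 FPKM in vector cells. The groups were far apart, with every FOXK2 library well below every vector library. The means were 10.1 ± 1.55 FPKM in FOXK2 cells and 27.97 ± 4.65 FPKM in vector cells (SD, n = 3 each), which is -1.38 on the log2 scale (SE 0.17, limma adjusted p = 0.00168), and the call was made whichever library was left out (adjusted p from 0.00273 to 0.00842).

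The stress effectors DDIT3 and TRIB3 were not called. DDIT3 stood at 7.10, 4.14 and 6.75 FPKM in FOXK2 cells, against 5.53, 5.67 and 6.02 FPKM in vector cells, with a log2 fold change of 0.02 and a 95% interval from -0.44 to 0.49 (limma adjusted p = 0.929). TRIB3 stood at 6.92, 12.6 and 8.06 FPKM in FOXK2 cells, against 12.1, 10.3 and 11.9 FPKM in vector cells (log2 fold change -0.32, SE 0.21, limma adjusted p = 0.265). FOXK2 replicate 2 stood apart in both genes, with the lowest DDIT3 and the highest TRIB3 of all 6 libraries. Without it TRIB3 was called lower in FOXK2 cells (log2 fold change -0.55, limma adjusted p = 0.0236).

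Ordered by level per length, the members ranked differently in the groups. In FOXK2 cells ATF4 came first at 173 FPKM, then ASNS, PSAT1 and PHGDH at 69.5, 64.0 and 59.5 FPKM, whose values overlapped, then SHMT2 at 37.6 FPKM. PSPH, CEBPB, TRIB3 and DDIT3 followed at 10.6, 10.1, 9.20 and 5.99 FPKM, each overlapping its neighbour. In vector cells ATF4 at 207 FPKM was followed by SHMT2, PSAT1, PHGDH and CEBPB at 32.5, 30.7, 30.6 and 27.97 FPKM, each overlapping the next. ASNS came sixth at 21.4 FPKM and overlapped neither neighbour, but its highest value (24.9 FPKM) nearly met the lowest of CEBPB (25.1 FPKM). The ASNS values also lay within the range of PHGDH (17.9 to 43.8 FPKM). TRIB3, PSPH and DDIT3 were last at 11.4, 10.96 and 5.74 FPKM.

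Fold changes across the table moved with the GC content of the transcripts, and the members were therefore set beside genes of like GC content. The Spearman correlation between GC content and log2 fold change was -0.587 over the tested genes, which are no replicates. Expressed as a log2 change for every 10 points of GC, each library's slope was -0.378, -0.0128 and -0.231 in FOXK2 libraries and 0.158, 0.163 and 0.300 in vector libraries. ASNS and PSAT1 had GC contents of 43.5% and 42.6%, in 1 of 10 equal bins of genes by GC content, whose median log2 fold change was 0.35. In that bin of 1031 genes 10 rose more than ASNS and 59 more than PSAT1. PHGDH had a GC content of 57.9%, where the median was -0.35 and 15 of 1031 genes rose more. CEBPB had a GC content of 66.2%, where the median was -0.53 and 61 of 1031 genes fell more.

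**Figure D2:**
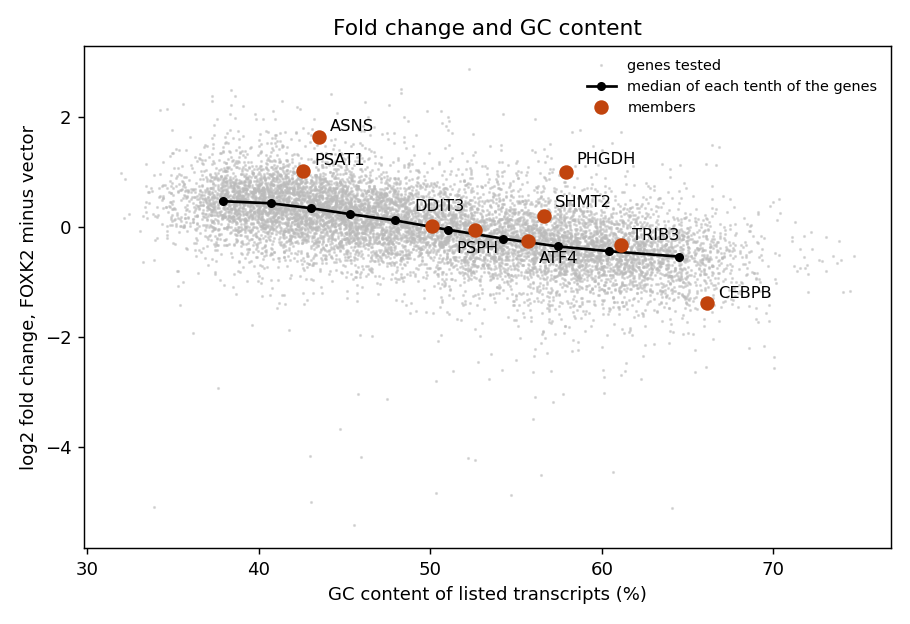
Log2 fold change (FOXK2 minus vector, y axis) against GC content of the listed transcripts in percent (x axis) for the 10305 genes tested (grey), with the median of each of 10 equal bins by GC content (black line) and the 9 members (large points). ASNS, PSAT1 and PHGDH lie well above the line, CEBPB lies below it, and ATF4, PSPH, DDIT3 and TRIB3 lie close to it.

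With each library's trend on GC content and length removed, the log2 fold changes of ASNS, PSAT1 and PHGDH were 1.41, 0.73 and 1.42 (limma adjusted p = 0.00409, 0.0132 and 0.0113), and that of CEBPB was -0.81 (adjusted p = 0.00502). These 4 calls were thus also made in the corrected fit, in which 15.9% of genes were called higher and 14.3% lower. SHMT2 was called higher only in that fit (log2 fold change 0.57, adjusted p = 0.0463). The log2 fold change of ATF4 had the opposite sign there (0.07, adjusted p = 0.501), as had those of PSPH (0.22, adjusted p = 0.129) and TRIB3 (0.11, adjusted p = 0.575).

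**Figure D3:**
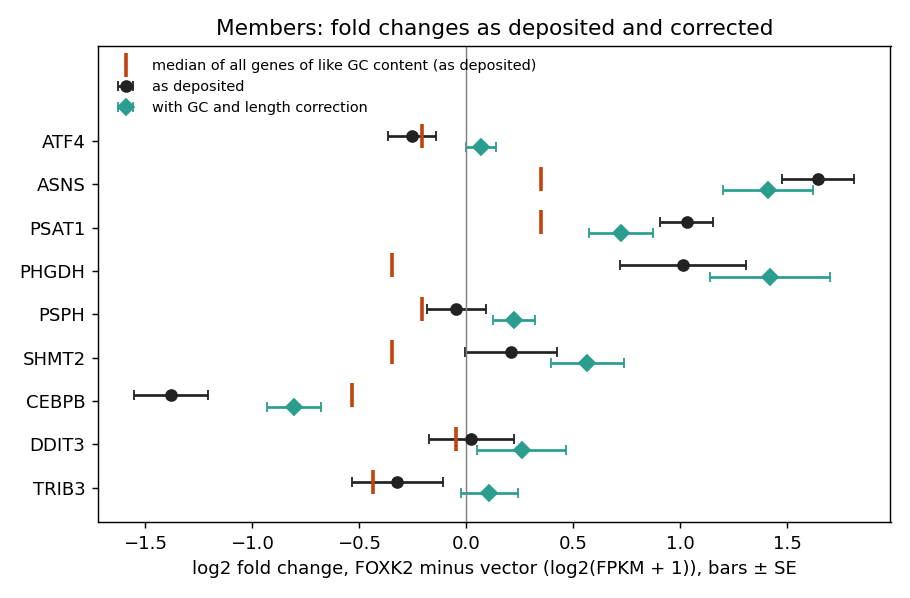
Log2 fold changes of the 9 members (x axis, FOXK2 minus vector, bars are the SE of the fit) as deposited (circles) and with GC and length correction (diamonds), with the median of the gene's bin of GC content (vertical ticks, as deposited). ASNS, PSAT1, PHGDH and CEBPB keep their direction, and ATF4 is at -0.25 as deposited and 0.07 corrected.

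The table lists 44 transcripts of the 9 genes, of which 30 were tested, 3 were called higher and 1 lower, where 3.03% and 4.36% of all 21273 transcripts tested were called higher and lower, together 7.39%. The ASNS rise lay mostly in ENST00000394308, at 41.4, 59.4 and 31.3 FPKM in FOXK2 cells, against 4.95, 9.59 and 9.83 FPKM in vector cells (log2 fold change 2.31, limma adjusted p = 0.0208). That transcript made up 63.3% of ASNS in FOXK2 cells and 37.9% in vector cells. A second ASNS transcript, ENST00000455086, was called as well, at 4.86, 8.59 and 8.35 FPKM in FOXK2 cells, and was listed at 1.71, 0 and 0 FPKM in vector cells (limma adjusted p = 0.0324). ENST00000422745, in contrast, held 12.6 of the 24.9 FPKM of ASNS in vector replicate 3 and at most 1.63 FPKM elsewhere. ENST00000444334 had means of 12.4 FPKM in FOXK2 cells and 5.35 FPKM in vector cells with 0 listed in vector replicate 3, and ENST00000448127 of 2.90 FPKM in FOXK2 cells and 2.21 FPKM in vector cells, and neither was called (adjusted p = 0.294 and 0.632).

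In PSAT1 the called transcript was ENST00000376588, at 59.7 ± 6.10 FPKM in FOXK2 cells and 26.4 ± 3.06 FPKM in vector cells (SD, n = 3 each; log2 fold change 1.15, limma adjusted p = 0.0146). The shorter ENST00000347159 had means of 4.31 FPKM in FOXK2 cells and 4.34 FPKM in vector cells (adjusted p = 0.930). CEBPB has the single listed transcript ENST00000303004 (limma adjusted p = 0.0176 across transcripts). None of the 4 tested PHGDH transcripts was called (adjusted p from 0.235 to 0.294). The most abundant, ENST00000641023, stood at 22.1, 28.97 and 45.3 FPKM in FOXK2 cells, against 8.53, 16.4 and 26.6 FPKM in vector cells, and overlapped between the groups. ENST00000641947, ENST00000641074 and ENST00000641115 were each listed at 0 in at least 1 vector library, and at 4.85 to 13.01 FPKM in FOXK2 libraries. ENST00000641947 and ENST00000641115 reached 13.9 and 11.9 FPKM in 1 vector library each. All 4 transcript calls were lost on leaving out FOXK2 replicate 3, and none was made in the fit with the replicate number as a block.

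**Figure D4:**
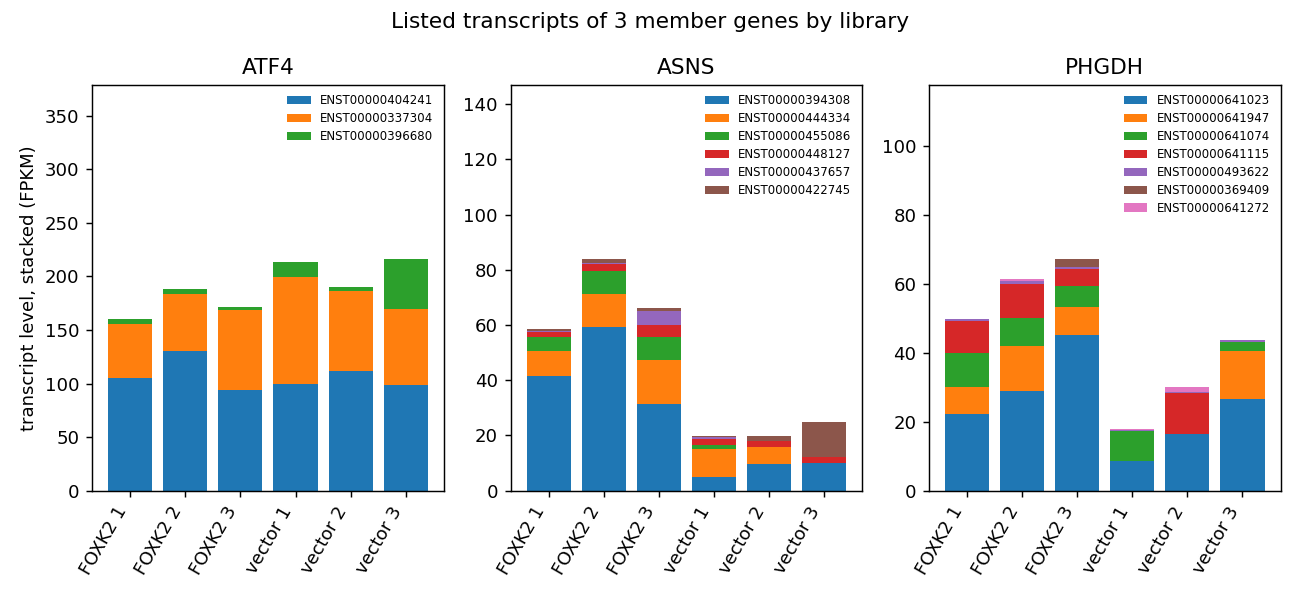
Level of each listed transcript of ATF4, ASNS and PHGDH in FPKM, stacked so that the top of a bar is the gene level (y axis), in each FOXK2 and vector library (x axis). The blue ASNS transcript ENST00000394308 is 31.3 to 59.4 FPKM in FOXK2 libraries and 4.95 to 9.83 FPKM in vector libraries, and the makeup of the rest differs from library to library.

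ATF4 was carried by 2 main transcripts. ENST00000404241 had means of 110 FPKM in FOXK2 cells and 103 FPKM in vector cells (log2 fold change 0.07, limma adjusted p = 0.775), and ENST00000337304 of 59.4 FPKM in FOXK2 cells and 82.0 FPKM in vector cells (log2 fold change -0.46, adjusted p = 0.209). ENST00000396680 was listed at 3.46 to 4.79 FPKM in FOXK2 cells, and at 13.5, 3.58 and 46.5 FPKM in vector cells. None was called. The main transcripts of SHMT2 (ENST00000328923, ENST00000414700 and ENST00000557529), PSPH (ENST00000395471, ENST00000421626, ENST00000419984 and ENST00000424596), DDIT3 (ENST00000346473 and ENST00000552740, with ENST00000547303 below the filter) and TRIB3 (ENST00000217233) were not called either (adjusted p from 0.453 to 0.989 for those tested). Of the 44 member transcripts, 12 were listed at 0 in some library, so the division of a gene among its transcripts is less certain than the gene sum.

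The rest of the pathway was read through 9 lists of related genes, with 111 tested genes in all, of which 29 rose and 14 fell, beside 17.6% and 18.7% of all genes tested. In 19 of these 43 the call was made in every fit that left out 1 library. In 24 of the 43 it was made with GC and length correction, and in 17 under both conditions. Upstream of ATF4, among 16 genes of eIF2 kinases, eIF2, eIF2B and their regulators, 4 rose and 2 fell, 37.5% against 36.3% of all genes (median log2 fold change 0.22). With GC and length correction none of these genes was called higher and 3 were called lower, against 15.9% and 14.3% of all genes, and the median was -0.08. PPP1R15A, the stress-induced phosphatase subunit that reverses eIF2 phosphorylation and is itself an ATF4 target, fell to 42.5 ± 4.35 FPKM in FOXK2 cells, against 92.1 ± 2.58 FPKM in vector cells (SD, n = 3 each; log2 fold change -1.10, limma adjusted p = 0.00100). EIF2S1, the subunit that is phosphorylated, rose to 47.5 ± 1.25 FPKM in FOXK2 cells, against 31.6 ± 1.04 FPKM in vector cells (log2 fold change 0.57), a call not made with GC and length correction (0.08, adjusted p = 0.729) or with the most abundant transcript (adjusted p = 0.209). GCN1, a scaffold of the kinase GCN2, fell (log2 fold change -0.47), and EIF2S2, another eIF2 subunit, rose (0.61). The GCN1 call was made without FOXK2 replicate 2 and in none of the other 5 fits that left out 1 library (adjusted p from 0.0642 to 0.101), and the EIF2S2 call was not made without FOXK2 replicate 1 or 3 or vector replicate 2 or 3 (adjusted p from 0.0735 to 0.110), nor with the correction (0.33, adjusted p = 0.0817) or the most abundant transcript (adjusted p = 0.0647). The kinase genes EIF2AK3 (PERK) and EIF2AK4 (GCN2), named here after their values were seen, had log2 fold changes of 0.53 and 0.49 with adjusted p = 0.0473 and 0.0486. They were called without FOXK2 replicate 2 and in none of the other 5 such fits (adjusted p from 0.0818 to 0.156). With the correction EIF2AK3 and EIF2AK4 had 0.13 and 0.20 and were not called (adjusted p = 0.410 and 0.149).

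Among 11 related bZIP factors 3 rose and 3 fell, 54.5% against 36.3% of all genes (median log2 fold change 0.13, and -0.0066 with the correction). CEBPD, a sister of CEBPB, had the largest fall, to 14.6 ± 2.43 FPKM in FOXK2 cells, against 77.9 ± 7.18 FPKM in vector cells (SD, n = 3 each; log2 fold change -2.35, SE 0.15, limma adjusted p = 0.000174). ATF5, a factor downstream of ATF4, fell to 11.8 ± 2.18 FPKM in FOXK2 cells, against 26.3 ± 1.01 FPKM in vector cells (log2 fold change -1.11). JUN, an AP-1 subunit, rose to 52.6 ± 1.84 FPKM in FOXK2 cells, against 27.9 ± 0.684 FPKM in vector cells (log2 fold change 0.89). These 3 calls were made with every library left out in turn and with GC and length correction, where ATF5 had -0.63. CEBPA, low at 0.745 FPKM in FOXK2 cells and 1.53 FPKM in vector cells, had a log2 fold change of -0.53, a call not made with the correction (-0.04, adjusted p = 0.843) or without FOXK2 replicate 1 or 3 or vector replicate 2 or 3 (adjusted p from 0.0654 to 0.104).

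Of the 22 genes listed as other ATF4 targets 16 were tested, and 3 rose and 4 fell, 43.8% against 36.3% of all genes (median log2 fold change -0.07, and 0.11 with the correction). The 4 that fell were the 4 with the smallest p. They were PPP1R15A and ATF5, given above, DDIT4, an inhibitor of mTORC1, at 11.2 ± 0.209 FPKM in FOXK2 cells and 32.7 ± 7.03 FPKM in vector cells, and the autophagy receptor SQSTM1 at 110 ± 17.8 FPKM in FOXK2 cells and 283 ± 42.7 FPKM in vector cells (SD, n = 3 each; log2 fold changes -1.45 and -1.36). Those that rose, named after their values were seen, were VEGFA (0.72), the tRNA exporter XPOT (0.86) and CEBPG (0.47). All but CEBPG were called in every fit that left out 1 library and with GC and length correction, where XPOT had 0.35 and PPP1R15A -0.73. VEGFA was not called with the most abundant transcript (adjusted p = 0.0694). CEBPG was not called with the correction (adjusted p = 0.634) or without FOXK2 replicate 1 or 3 or vector replicate 2 or 3 (adjusted p from 0.109 to 0.137). CHAC1, a glutathione-degrading enzyme and a standard marker of ATF4 activity, also named after its values were seen, stood at 2.46 ± 0.704 FPKM in FOXK2 cells and 4.17 ± 1.31 FPKM in vector cells (log2 fold change -0.57, limma adjusted p = 0.0895), and its log2 fold change was -0.00087 with the correction (adjusted p = 0.997).

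Around serine and asparagine, 5 of 14 tested folate and one-carbon genes rose and 1 fell, 42.9% against 36.3% of all genes (median log2 fold change 0.36, and 0.10 with the correction). TYMS, thymidylate synthase, rose to 151 ± 3.66 FPKM in FOXK2 cells, against 75.2 ± 4.29 FPKM in vector cells (SD, n = 3 each; log2 fold change 1.00, limma adjusted p = 0.000908). The trifunctional folate enzyme gene MTHFD1 had a log2 fold change of 0.66, and SFXN1, a mitochondrial serine carrier, 0.58. SFXN1 was not called with GC and length correction (0.19, adjusted p = 0.174) or without FOXK2 replicate 3 or vector replicate 2 or 3 (adjusted p from 0.0571 to 0.0616), while TYMS and MTHFD1 were called in all of these. Of 13 genes of glutamine, glutamate, aspartate and proline metabolism 3 rose and 4 fell, 53.8% against 36.3% of all genes (median -0.25, and -0.09 with the correction). ASS1, which uses aspartate to make argininosuccinate, was listed at 0, 0.405 and 0.207 FPKM in FOXK2 cells, against 7.04, 6.37 and 5.89 FPKM in vector cells (log2 fold change -2.64, limma adjusted p = 0.000175). The next enzyme ASL stood at 13.3 ± 2.25 FPKM in FOXK2 cells and 31.1 ± 4.20 FPKM in vector cells (log2 fold change -1.17), and the proline synthesis gene PYCR3 had a log2 fold change of -1.04. With the correction ASL and PYCR3 had -0.66 and -0.59 and were called, and ASL was not called with the most abundant transcript (adjusted p = 0.0594).

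Of 9 tested amino acid transporters 3 rose and none fell, 33.3% against 36.3% of all genes (median log2 fold change 0.28). The cystine transporter SLC7A11 had 1.56 ± 0.224 FPKM in FOXK2 cells and 0.604 ± 0.0827 FPKM in vector cells (SD, n = 3 each; log2 fold change 0.67), a call not made with GC and length correction (0.13, adjusted p = 0.632). The lysosomal transporter SLC36A1 had a log2 fold change of 0.70 and was not called without FOXK2 replicate 3 or vector replicate 2 or 3 (adjusted p from 0.0567 to 0.0689). The glutamine transporter SLC38A1 had 0.75 and was called without FOXK2 replicate 2 and in none of the other 5 such fits (adjusted p from 0.0507 to 0.0946), nor with the correction (0.25, adjusted p = 0.0877). SLC7A1 was not called (0.28, adjusted p = 0.110).

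Of 18 cytosolic aminoacyl-tRNA synthetases 3 rose and none fell, 16.7% against 36.3% of all genes (median log2 fold change 0.21, and 0.06 with the correction). GARS1 (GARS in GENCODE 29), which charges glycine, stood at 87.6, 70.8 and 82.7 FPKM in FOXK2 cells, against 41.6, 45.4 and 39.1 FPKM in vector cells (0.92 on the log2 scale, SE 0.13, limma adjusted p = 0.00262). IARS1 (IARS) stood at 90.8, 71.9 and 84.3 FPKM in FOXK2 cells, against 52.1, 47.7 and 39.5 FPKM in vector cells (0.82, adjusted p = 0.00668). NARS1 (NARS), which charges asparagine, stood at 56.6, 34.8 and 40.8 FPKM in FOXK2 cells, against 28.6, 20.9 and 23.4 FPKM in vector cells (0.81, adjusted p = 0.0194). The groups did not overlap in any of the 3. NARS1 was not called without FOXK2 replicate 3 or vector replicate 2 or 3 (adjusted p from 0.0512 to 0.0628) or with the correction (0.49, adjusted p = 0.0506). IARS1 had 0.42 with the correction (adjusted p = 0.00986) and was not called with the most abundant transcript (adjusted p = 0.120). TARS1 (TARS) just missed the threshold (0.42, adjusted p = 0.0505), and had 0.03 with the correction (adjusted p = 0.910).

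These 3 genes also held TGATGNAA in a RefSeq promoter window. Their sites, shown because the 3 synthetase genes that rose are among the 7 of 14 synthetase genes whose window held the letters, are given with the 8 matched letters in capitals. In GARS1 and IARS1 the letters stand on the strand opposite to the gene. They lie at chr7:30594845-30594852 (plus-strand gene), chr9:92293703-92293710 (minus-strand gene) and chr18:57621815-57621822 (minus-strand gene) of GRCh38.p14.
GARS1: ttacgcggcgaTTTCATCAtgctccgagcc
IARS1: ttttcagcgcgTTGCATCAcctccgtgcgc
NARS1: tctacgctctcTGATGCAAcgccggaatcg
As deposited, the other 4 synthetase genes with the letters (AARS1, CARS1, MARS1 and TARS1) were not called. Neither were any of the 7 with windows that lacked them. The median log2 fold change was 0.42 with the letters and 0.09 without, as deposited. With GC and length correction the log2 fold changes were -0.01 to 0.80 with the letters and -0.30 to 0.33 without. In that fit GARS1 and IARS1 were called among those with the letters and NARS1 was not. SARS1 (SARS), whose window lacks the letters, was called higher there (0.33, limma adjusted p = 0.0209). Of all tested genes with a window, 206 held TGATGNAA, of which 23.3% rose and 10.7% fell (median 0.16), and of the 8283 without it 17.2% rose and 18.6% fell (median 0.02). For GTAAACA, 55 of 275 genes with the letters rose and 48 fell (median 0.12). Of the 8214 genes without them 1420 rose and 1517 fell (median 0.02). No test was made of these shares, and they are given without GC and length correction.

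Of 13 tested genes of the other branches of the endoplasmic reticulum stress response 4 rose and 2 fell, 46.2% against 36.3% of all genes (median log2 fold change 0.24, and 0.10 with the correction). The co-chaperone DNAJC3, an inhibitor of PERK, stood at 15.9 ± 3.97 FPKM in FOXK2 cells and 7.16 ± 1.82 FPKM in vector cells (SD, n = 3 each; log2 fold change 1.05), and the chaperone HSP90B1 at 284 ± 68.9 FPKM in FOXK2 cells and 157 ± 21.6 FPKM in vector cells (0.83). CRELD2 fell (-0.58) and SEL1L, a part of the degradation machinery, rose (0.71). With GC and length correction CRELD2 and SEL1L were not called (-0.03 and 0.20, adjusted p = 0.828 and 0.191), and DNAJC3 and HSP90B1 were called with 0.55 and 0.47. Without FOXK2 replicate 3 or vector replicate 3 HSP90B1 and SEL1L were not called, nor SEL1L without FOXK2 replicate 1 or vector replicate 2, nor CRELD2 without vector replicate 1 or 3 (adjusted p from 0.0581 to 0.0885). Of 7 tested genes linked to CHOP-driven death and oxidation 2 rose (BCL2, 0.61, and ERO1A, 0.50) and PPP1R15A fell, 42.9% against 36.3% of all genes (median log2 fold change -0.11, and -0.35 with the correction). Both rises were lost with the correction (adjusted p = 0.152 and 0.908) and without vector replicate 1, 2 or 3 or FOXK2 replicate 1, BCL2 also without FOXK2 replicate 2 and ERO1A also without FOXK2 replicate 3 (adjusted p from 0.0528 to 0.144). The CHOP target TNFRSF10B was not called (-0.26, adjusted p = 0.3401).

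**Figure D5:**
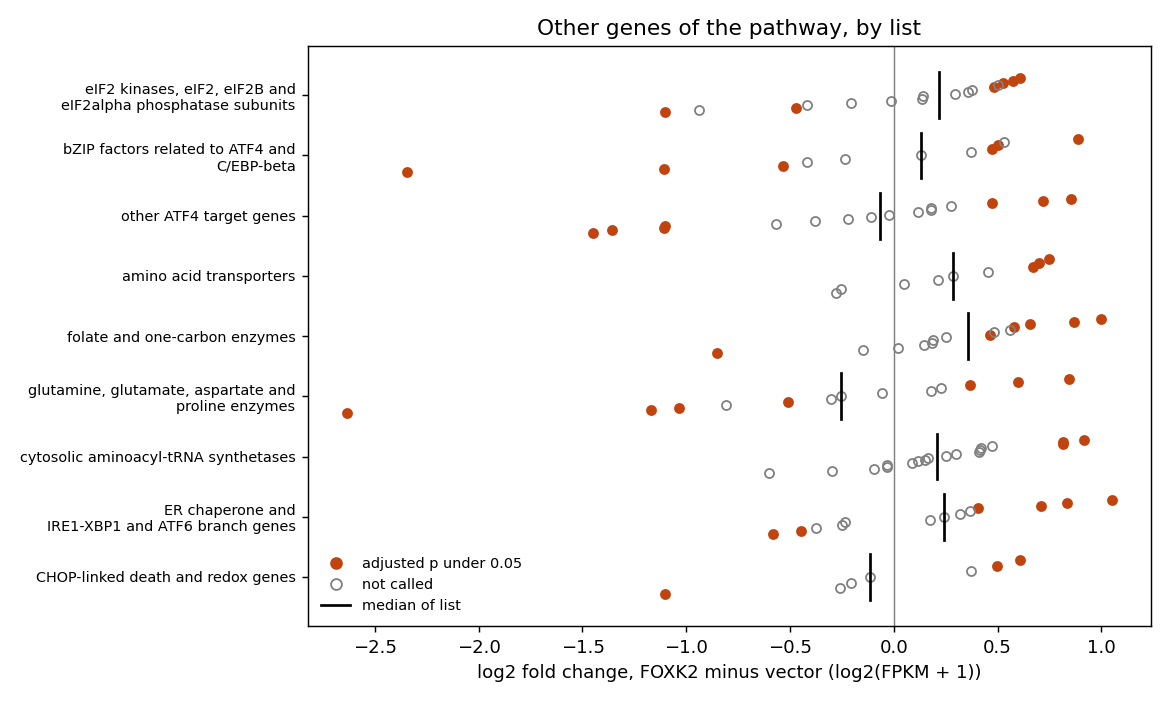
Log2 fold changes (x axis, FOXK2 minus vector) of the tested genes of the 9 lists (rows), filled where the limma adjusted p was under 0.05 and open where it was not, with the list median as a vertical bar. List medians lie between -0.25 and 0.36, and every list but those of transporters and synthetases holds genes called in both directions.

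Among genes averaging 5 FPKM or more, those whose centred log2 profile over the 6 libraries was nearest to that of ASNS were CDCA8, SAPCD2 and CDCA3, with root mean square differences of 0.0973, 0.123 and 0.124 log2 units. CDCA8 stood at 39.5, 49.8 and 41.8 FPKM in FOXK2 cells, against 13.03, 14.4 and 16.8 FPKM in vector cells. Nearest to ATF4 were GATC, GRB2 and DCUN1D5, with differences of 0.0242, 0.0323 and 0.0365 log2 units. None of them was called (limma adjusted p from 0.0987 to 0.229), which their choice by likeness to ATF4 in these libraries makes likely.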

How the data were processed

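Libraries of total RNA were made with a stranded kit that uses random priming and dUTP, per the labels' protocols. Per the submitters' processing notes, cutadapt, HISAT2 2.1.0 and StringTie were used on the build hg19. For strand setting and annotation release nothing is given in the sources used. One deposited table was analysed, with 1 value per transcript and library. The authors' values were taken as FPKM because StringTie is named, and the deposited header gives no unit. Read counts are not given, so the depth is unknown and no counting interval is printed. Every listed transcript averages 0.5 FPKM or more in 1 group or both, so lower transcripts are missing from gene sums.

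Of 31009 transcripts 30893 were matched to GENCODE 29 by identifier without version, which gives names, GC content and length only, and were summed to 11359 genes. Genes averaging 1 FPKM or more across all 6 libraries were tested on log2(FPKM + 1), on which fold changes of low genes are understated, with limma 3.58.1 in R 4.3.3 (1 group term, intensity trend, two-sided, Benjamini-Hochberg over all genes; transcripts likewise). Scripts were tested on simulated data. GENCODE names pseudogenes of ATF4, ASNS, PSAT1 and PSPH. It also has genes overlapping DDIT3 (MARS and 3 others), SHMT2 (NDUFA4L2 and 1 other), ASNS and CEBPB, so these levels are uncertain where reads were shared.

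Members, lists and tests were chosen with earlier results of these data known. Genes named are the members, FOXK2, up to 4 genes of smallest p per list, 3 genes of most similar profile to ATF4 and to ASNS, and member transcripts with at least 10% of the gene in a group; others are marked, and some genes that the rule names are not reported here. Other settings tried were pseudocounts of 0.1 and 0.5, no filter or a mean of 5 FPKM or more, median ratio scaling, quantile normalization, a fit lacking the intensity trend, the replicate number as a block, GC and length correction (natural splines with 4 degrees of freedom) with and without that block, the most abundant transcript, and each library left out.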

Additional observations from a re-analysis of the deposited data

How the results depend on the processing

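Of the 4 member genes called, ASNS, PSAT1 and CEBPB were called under all 11 other settings and in all 6 fits that left out 1 library, and PHGDH was not called with the most abundant transcript (adjusted p = 0.165) or in 5 of those 6 fits. The fits that left out 1 library called 3 to 4 member genes, with 1 to 2 of them lower. The genes called of all genes tested, 3741, became 2124 with GC and length correction with replicate block and 2143 with the most abundant transcript, and 1950 to 4778 with 1 library left out. Transcript calls fell to 22 with the replicate block and 20 with the correction and the block, against 1572, and were 171 to 2154 with 1 library left out. Member transcript calls were 0 under both block fits and 0 to 3 with 1 library left out, against 4. Calls in the pathway lists were 28 with the correction and the block, 21 with the most abundant transcript and 21 to 52 with 1 library left out, against 43. The sample labels do not say whether the replicate numbers pair the samples. Deviations of same-numbered libraries correlated at 0.126, -0.168 and -0.0564, and those of other pairs at -0.284 to 0.302. With 3 libraries in each group these values cannot decide whether there is a pairing. With the block alone 2982 genes were called. Log2 fold changes of opposite sign, alike with and without the block, came with GC and length correction for ATF4 (0.069), PSPH (0.22), TRIB3 (0.11), ERO1A (-0.016), ENST00000448127 (-0.081), ENST00000347159 (-0.056), ENST00000419984 (0.23), ENST00000557529 (0.10) and ENST00000217233 (0.048). Others came with the most abundant transcript for ATF4 (0.074) and CRELD2 (0.35), and with quantile normalization for DDIT3 (-0.013) and ENST00000346473 (-0.0053). With 1 library left out the sign also changed for PSPH (-0.12 to 0.018), DDIT3 (-0.10 to 0.23), ENST00000404241 (-0.053 to 0.18), ENST00000448127 (-0.040 to 0.42), ENST00000422745 (-1.56 to 0.17), ENST00000347159 (-0.30 to 0.30), ENST00000395471 (-0.35 to 0.090), ENST00000421626 (-0.0094 to 0.36), ENST00000419984 (-0.25 to 0.16), ENST00000328923 (-0.15 to 0.40), ENST00000414700 (-0.24 to 0.58), ENST00000557529 (-1.17 to 0.79) and ENST00000346473 (-0.10 to 0.12). Apart from the smaller number of libraries in the fits that leave 1 out, the cause was not tested. The unknown depth limits low genes most.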
